A study of Homo sapiens with 8 samples.

Results

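Bile acid transporters and the farnesoid X receptor (FXR) axis were examined as a set of 10 genes chosen by name. The rule used no measured value, but earlier results of these data were known when the set was chosen. The set holds the receptor NR1H4 (FXR), the repressor NR0B2 (SHP), the uptake carriers SLC10A1 (NTCP) and SLCO1B3 (OATP1B3), the canalicular exporters ABCB11 (BSEP), ABCB4 (MDR3) and ABCC2 (MRP2), and the basolateral exporters ABCC3 (MRP3), SLC51A (OSTα) and SLC51B (OSTβ). Of these 10 members, 8 had a row in a table of 25603 genes. ABCB11 and SLCO1B3 had none and were not analysed here. A filter on low levels was passed by 7 members, and SLC10A1 was below it.

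The libraries came from HepG2, an established human hepatocarcinoma cell line that keeps many hepatocyte functions, so every result concerns 1 tumor-derived line. The vehicle group (4 libraries) received DMSO, at 0.2% per the labels, and the EZHi group (4 libraries) received UNC1999 and valemetostat tosylate, each at 1 µM, for 4 days. The methods of the study give a lower DMSO percentage for the control, and the labels state no DMSO level for the EZHi group. Both compounds inhibit EZH1 and EZH2, the enzymes of polycomb repressive complex 2 that methylate lysine 27 of histone H3, and the comparison asks which transcripts change when that activity is inhibited. All libraries shared William's E medium with serum, insulin and dexamethasone, a glucocorticoid that itself acts on hepatocyte genes.

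Bile acids are made from cholesterol in hepatocytes, taken back up from portal blood across the basolateral membrane, and pumped into the canaliculus across the apical membrane. FXR is the nuclear receptor that binds bile acids. Together with its partner RXR it raises transcription of exporters such as ABCB11, ABCB4 and SLC51A/B and of NR0B2, whose product in turn restrains bile acid synthesis. When bile acids accumulate, the basolateral exporters ABCC3 and OSTα/β return them to blood. FXR with RXR binds pairs of the half-site AGGTCA, most often facing each other across 1 base.

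Promoter sequences, as 250 bases before to 50 after the annotated start, were given by RefSeq (GRCh38.p14) for 7 of the 10 members, and not for ABCB4, ABCC3 or NR0B2. Both strands were searched for AGGTCA facing its reverse complement across 1 base, with up to 2 mismatches. This inverted repeat was found in 4 of 7 members, against 1.12% of 35116 promoters in the same table. The matches are shown to let the departures from the repeat be seen, with bases that fit the repeat in capitals and both the spacer and the mismatches in lower case.
SLC10A1: AGGTCAggGAgCT
ABCB11: AtGTCAcTGAaCT
SLC51B: AGGTCAgTcACCc
SLCO1B3: AGGaCAaTGACCT
The first base of the match lay at position -149 in SLC10A1, -96 in ABCB11, -54 in SLC51B and -83 in SLCO1B3, counted from the annotated start. SLCO1B3 had 1 mismatch and the others had 2. Of these 4 genes SLC51B passed the filter on level, SLC10A1 did not, and ABCB11 and SLCO1B3 had no row. The same half-site repeated head to tail across 1 base, a form that HNF4A binds, was found with up to 2 mismatches in 0 of 7 members and in 2.97% of all promoters. TCAAGGTCA, the site of NR5A2 (LRH-1), was found with up to 1 mismatch in 0 of 7 members and in 5.84% of all promoters. A match describes letters in this window and is not evidence of binding. A site with more mismatches than allowed would be missed, so a match shown need not be the site that a factor uses. Such windows also hold no distal site.

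The promoters of NR1H4, SLC51A and SLC51B are printed whole. These genes are the tested member with the highest fold change and both subunits of the heteromeric carrier OSTα/β. The fold changes of the subunits had opposite signs, but neither was called on groups alone and their difference was not tested. Capitals mark the inverted repeat, and all 3 sequences run 5′ to 3′ on the plus strand, which is the strand of each gene. NR1H4 is at chr12:100503110-100503409, SLC51A at chr3:196216284-196216583 and SLC51B at chr15:65045137-65045436 (GRCh38.p14).
NR1H4: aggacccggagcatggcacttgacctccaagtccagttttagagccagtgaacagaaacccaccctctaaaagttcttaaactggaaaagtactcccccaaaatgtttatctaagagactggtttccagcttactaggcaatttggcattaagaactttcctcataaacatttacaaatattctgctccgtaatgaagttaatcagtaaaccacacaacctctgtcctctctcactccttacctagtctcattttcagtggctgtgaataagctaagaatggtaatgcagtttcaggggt
SLC51A: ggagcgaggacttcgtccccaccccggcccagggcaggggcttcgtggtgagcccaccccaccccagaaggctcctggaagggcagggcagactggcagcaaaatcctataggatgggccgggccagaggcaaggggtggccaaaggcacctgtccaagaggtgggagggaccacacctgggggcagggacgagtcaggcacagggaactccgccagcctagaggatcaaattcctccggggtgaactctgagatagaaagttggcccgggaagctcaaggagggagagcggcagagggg
SLC51B: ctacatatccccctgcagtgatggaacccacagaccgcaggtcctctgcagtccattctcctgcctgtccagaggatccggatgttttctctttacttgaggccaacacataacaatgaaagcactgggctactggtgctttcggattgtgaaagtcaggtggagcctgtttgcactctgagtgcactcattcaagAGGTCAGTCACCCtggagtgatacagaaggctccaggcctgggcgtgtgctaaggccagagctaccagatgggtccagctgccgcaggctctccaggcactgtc
For NR1H4 and SLC51A the RefSeq start lay inside the longer gene span of GENCODE release 44, so each window stands for 1 of several starts. The 7 promoters had few CpG dinucleotides, with an observed over expected ratio between 0 and 0.325, and the ratio over all promoters had a median of 0.579 and quartiles of 0.229 and 0.856.

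Expression is given as the deposited log2 value, which is corrected for transcript length and can be compared between genes, or as an estimated FPKM computed from it (fragments per kilobase of transcript and per 1e6 fragments). Read depth is unknown because the values are already normalized, and no counting interval can be given. Across genes, libraries of 1 group correlated at 0.992 to 0.997 and libraries of different groups at 0.986 to 0.993. All 14 hepatocyte markers had a row, with ALB, APOA1 and HNF4A among them, and their summed estimated FPKM was 15069 to 34126 in vehicle and 16697 to 31325 in EZHi libraries. Fold changes are EZHi against vehicle from limma, and a gene is described as called at a Benjamini-Hochberg adjusted p under 0.05 over the 20153 genes tested. Because same-numbered libraries of the 2 groups deviated together, the value from a fit with the replicate number as a block is given where it changes a call. The study describes the 4 libraries of each group as independent biological replicates, while the labels do not name separate cultures.

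Of the 7 members tested, 1 rose (NR1H4) and 1 fell (ABCC3), beside 13.1% of all genes called, 8.85% higher and 4.27% lower. With the replicate block 5 of 7 were called, and these were NR1H4, SLC51A and ABCB4 higher and ABCC3 and ABCC2 lower, while 30.0% of all genes were called, 14.9% higher and 15.1% lower. Groups did not overlap for NR1H4 and ABCC3, 2 of 7 members, and for 18.6% of all genes tested. The median log2 fold change was -0.14 over the members and -0.008 over all genes. No test was made of the members as a set, and the results are given gene by gene.

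**Figure D1:**
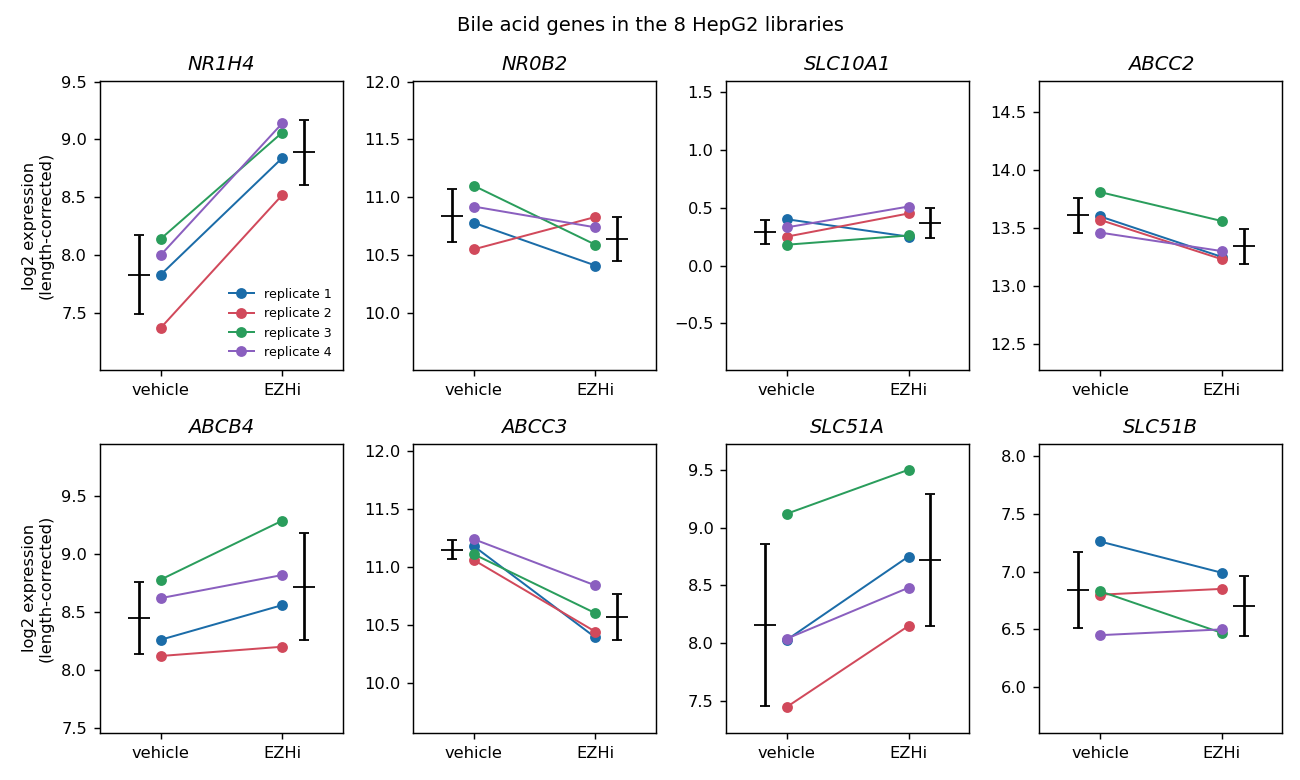
Log2 expression (length-corrected) of the 8 members with a row, in 4 vehicle and 4 EZHi libraries of HepG2 cells, with lines joining libraries of the same replicate number and black bars giving the mean and SD of each group. Every panel spans the same log2 range; NR1H4 moved up and ABCC3 down in each pair with no overlap of groups, and SLC51A and ABCB4 moved up in each pair although their groups overlap.

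NR1H4 encodes FXR, the bile acid receptor of the axis, and lies at chr12:100473708-100564414 on the plus strand (GRCh38). Its log2 level was 7.83, 7.37, 8.14 and 8.0 in vehicle replicates 1 to 4 and 8.84, 8.52, 9.06 and 9.14 in EZHi replicates 1 to 4. The lowest EZHi library was above the highest vehicle library. The mean rose from 7.83 ± 0.34 to 8.89 ± 0.28 (SD, n = 4). The log2 fold change was 1.06 (SE 0.18, 95% interval 0.65 to 1.46, limma adjusted p = 0.00411), which is 2.08-fold. The rise was seen in 4 of 4 same-numbered pairs, at 0.92 to 1.15 on the log2 scale. NR1H4 was called in 8 of 8 fits that each left out 1 library, with fold changes of 0.90 to 1.18.

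NR0B2 encodes SHP, a corepressor without a DNA-binding domain and a classical FXR target. Its log2 level was 10.78, 10.55, 11.10 and 10.92 in vehicle libraries and 10.41, 10.83, 10.59 and 10.74 in EZHi libraries. The ranges overlapped, and 3 of 4 pairs were lower and pair 2 higher in EZHi. The log2 fold change was -0.20 (SE 0.13, 95% interval -0.48 to 0.08, limma adjusted p = 0.363), and with the replicate block the adjusted p was 0.211. Without pair 2 the blocked fit gave an adjusted p of 0.0132, so replicate 2 decides whether NR0B2 is called there. The interval leaves room for a fall of 0.48 and a rise of 0.08 on the log2 scale, so it does not reach the size of the rise of NR1H4 in either direction.

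SLC10A1 encodes NTCP, the sodium-dependent carrier that brings conjugated bile acids into hepatocytes. Its log2 level was 0.40, 0.25, 0.18 and 0.33 in vehicle libraries and 0.25, 0.45, 0.26 and 0.51 in EZHi libraries. The ranges overlapped and the means differed by 0.08 (exact two-sided permutation p = 0.371 over 70 assignments, where 0.0286 is the smallest possible). At an estimated FPKM of 0.048 in vehicle and 0.0506 in EZHi cells, this defining transporter of mature hepatocytes was below the filter, in a range where the transformation used by the authors shrinks differences. In bulk RNA, fewer cells carrying a transcript and less of it per cell cannot be told apart, here and for each gene described.

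ABCC2 encodes MRP2, the canalicular pump for conjugated bilirubin and divalent bile acid conjugates. The log2 level of ABCC2 was 13.60, 13.57, 13.81 and 13.46 in vehicle libraries and 13.25, 13.23, 13.56 and 13.30 in EZHi libraries. The ranges overlapped through EZHi replicate 3 and vehicle replicate 4, while every pair was lower in EZHi, by -0.34 to -0.17. The log2 fold change was -0.27 (SE 0.10, 95% interval -0.49 to -0.05), which limma did not call on groups alone (adjusted p = 0.111). ABCC2 was called lower with the replicate block (95% interval -0.38 to -0.16, adjusted p = 0.00332), in 4 of 4 blocked fits that left out a pair, and on groups alone without EZHi replicate 3 (-0.35, adjusted p = 0.0399).

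ABCB4 encodes MDR3, the canalicular floppase that supplies phosphatidylcholine to bile. In vehicle libraries the log2 level was 8.26, 8.12, 8.78 and 8.62, and in EZHi libraries it was 8.56, 8.20, 9.29 and 8.82. All 4 pairs were higher in EZHi, by 0.08 to 0.51, with wide overlap between groups. The log2 fold change was 0.27 (SE 0.23, 95% interval -0.23 to 0.78, limma adjusted p = 0.503), and the replicate block gave an interval of 0.11 to 0.44 and an adjusted p of 0.0218. That call held without pair 2 (adjusted p = 0.0221) and was lost in the blocked fits without pair 1, 3 or 4, where adjusted p was 0.0791, 0.0948 and 0.0549.

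ABCC3 encodes MRP3, which exports glucuronides and bile acids back to blood, and lies at chr17:50634777-50692253 on the plus strand (GRCh38). Its log2 level was 11.18, 11.06, 11.11 and 11.24 in vehicle libraries and 10.39, 10.44, 10.60 and 10.84 in EZHi libraries. Vehicle values were close together, and every EZHi library was below all of them. The mean went from 11.15 ± 0.08 to 10.57 ± 0.20 (SD, n = 4), and ABCC3 fell by 0.58 on the log2 scale (SE 0.10, 95% interval -0.80 to -0.36, limma adjusted p = 0.0041), to 0.668 of the vehicle level. The fall was called in 8 of 8 fits without 1 library, and pairs differed by -0.80 to -0.40.

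SLC51A and SLC51B encode the subunits of OSTα/β, which must assemble to move bile acids across the basolateral membrane. SLC51A stood at a log2 level of 8.03, 7.45, 9.12 and 8.04 in vehicle libraries and 8.75, 8.15, 9.50 and 8.48 in EZHi libraries. Replicate 3 was the highest and replicate 2 the lowest of both groups, so the groups overlapped although each pair was higher in EZHi, by 0.38 to 0.72. The log2 fold change was 0.56 (SE 0.36, 95% interval -0.25 to 1.37), not called on groups alone (limma adjusted p = 0.37). With the replicate block the interval was 0.40 to 0.73 and the adjusted p 0.000569, and the call held in 4 of 4 blocked fits without a pair.

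SLC51B stood at a log2 level of 7.26, 6.80, 6.83 and 6.45 in vehicle libraries and 6.99, 6.85, 6.47 and 6.50 in EZHi libraries. Pairs were split, 2 higher and 2 lower, and the ranges overlapped. The log2 fold change was -0.14 (SE 0.18, 95% interval -0.54 to 0.27, limma adjusted p = 0.703), the adjusted p with the block was 0.337, and without vehicle replicate 1 the fold change was 0.0059. The difference between the fold changes of the 2 subunits was not tested. Counting took no account of strand, and SLC51A shares 7.39% of its exonic bases with PCYT1A and SLC51B 6.6% with RASL12, both on the opposite strand. PCYT1A had a log2 fold change of -0.15 (limma adjusted p = 0.243) at a mean estimated FPKM of 36.4, beside 14.9 for SLC51A. RASL12 had 0.60 (limma adjusted p = 0.00564) at 0.131, beside 4.33 for SLC51B. Reads of these partners cannot be told apart in the shared bases.

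**Figure D2:**
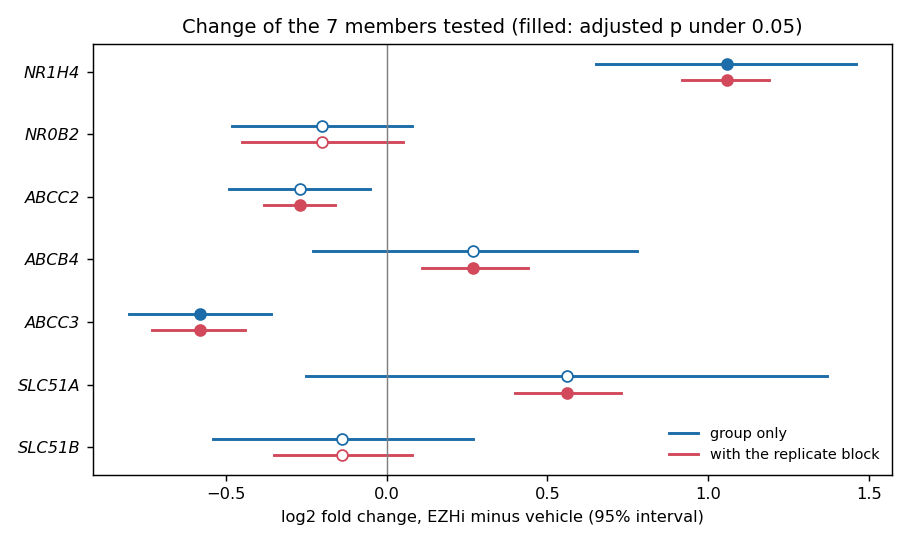
Log2 fold change of the 7 members tested, EZHi minus vehicle, with 95% intervals from limma on groups alone (blue) and with the replicate block (red), and filled points for adjusted p under 0.05. NR1H4 and ABCC3 are filled in both fits, SLC51A, ABCC2 and ABCB4 in the blocked fit, and NR0B2 and SLC51B in neither.

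Levels per mean transcript length differed widely among the members, and their order depends on the lengths used. In vehicle cells ABCC2 was the highest, at an estimated FPKM of 489.7 ± 50.6 (SD, n = 4), followed by ABCC3 at 88.8 ± 5.12 and NR0B2 at 72.2 ± 11.4, and the ranges of the last pair overlapped. ABCB4 at 13.9 ± 2.95, SLC51A at 12.3 ± 6.50 and NR1H4 at 9.08 ± 1.96 formed a middle group in which neighbours overlapped, above SLC51B at 4.55 ± 1.07. On this scale the receptor was thus among the lowest-expressed of the tested members in vehicle cells and its classical target NR0B2 among the highest.

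In EZHi cells ABCC2 was again highest, at an estimated FPKM of 406 ± 45.3, above NR0B2 at 62.7 ± 7.89 and ABCC3 at 59.7 ± 8.72, whose ranges overlapped. NR1H4 at 18.8 ± 3.46 now led the middle group, ahead of SLC51A at 17.5 ± 7.49 and ABCB4 at 17.1 ± 5.53, but these neighbours overlapped and their order cannot be read. SLC51B followed at 4.11 ± 0.735. Within single libraries ABCC2 was between 77.0 and 137 times SLC51B on this scale, a ratio that depends on the transcript lengths used.

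**Figure D3:**
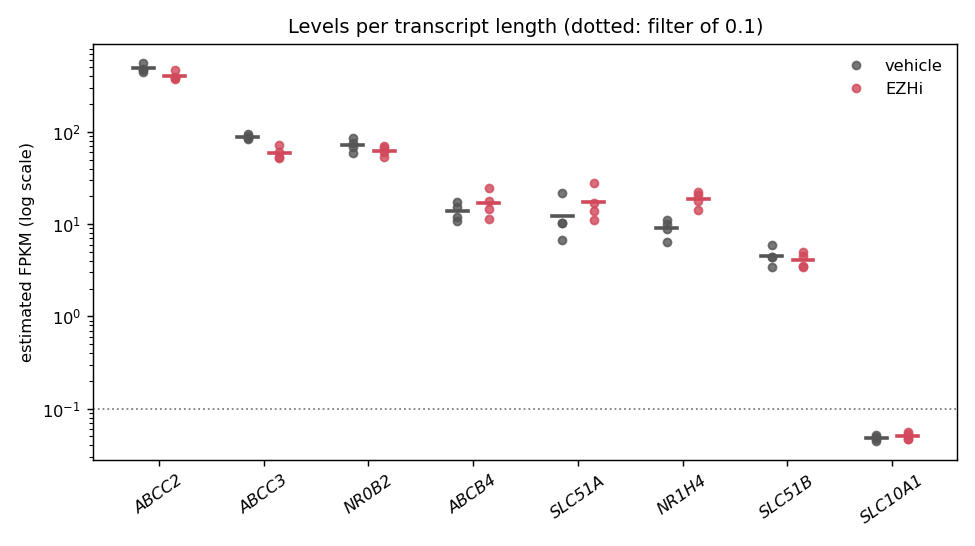
Estimated FPKM (log axis) of the 8 members in vehicle (grey) and EZHi (red) libraries, with 1 point per library and bars at group means, ordered by the vehicle mean. ABCC2 lies far above the others and SLC10A1 lies below the dotted filter line at 0.1, and the EZHi points of NR1H4 are above all its vehicle points.

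Spread within a group was shared between members and between same-numbered libraries. Among vehicle libraries replicate 2 was the lowest for 5 of 7 members and replicate 3 the highest for 5 of 7. Among EZHi libraries replicate 2 was the lowest for 4 and replicate 3 the highest for 3. Of 28 pairs of deviations from the group mean, 22 had the same sign in both groups. The mean log2 level of the 14 hepatocyte markers took the same order at its ends, at 13.97, 13.54, 14.37 and 14.01 in vehicle and 14.03, 13.84, 14.46 and 14.19 in EZHi replicates 1 to 4, and its part in the members' spread was not tested.

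**Figure D4:**
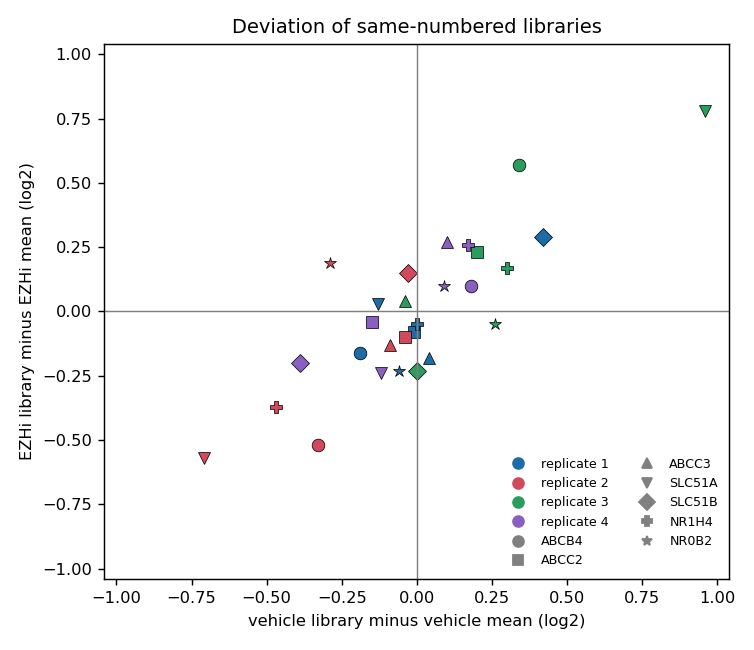
Deviation of each library from its group mean (log2) for the 7 members tested, vehicle on the x axis and EZHi on the y axis, with 1 point per member and replicate number (color, replicate; shape, gene). SLC51A of replicates 2 and 3 lies at opposite ends, and 22 of 28 points fall in the quadrants where both deviations have the same sign.

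Of 17 enzymes and carriers of bile acid synthesis, 15 were tested, 2 rose and 2 fell (median 0.10), beside 13.1% of all genes called. CYP7A1, the rate-limiting enzyme of the classical route and a gene repressed through SHP, was at a log2 level of 3.09, 2.70, 4.19 and 3.40 in vehicle libraries and 4.48, 4.50, 5.54 and 5.44 in EZHi libraries. The groups did not overlap, and CYP7A1 rose by 1.65 (SE 0.35, limma adjusted p = 0.0124) from a low estimated FPKM of 0.428 to 1.32. CYP39A1, an oxysterol hydroxylase, rose by 0.71 (limma adjusted p = 0.0195), and it was called in 6 of 8 fits without 1 library, the exceptions being vehicle replicate 4 (adjusted p = 0.0583) and EZHi replicate 1 (0.0585). HSD3B7, which acts on the sterol ring in both routes, fell by 0.56 (limma adjusted p = 0.013). ABCD3, a peroxisomal carrier of bile acid precursors, fell by 0.24 (limma adjusted p = 0.0381), but among the fits without 1 library it was called in 1 of 8, that without vehicle replicate 1, and adjusted p reached 0.087 in the others.

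The other named enzymes of synthesis were not called. CYP8B1, which sets the share of cholic acid, had a log2 fold change of 0.36 (95% interval -0.17 to 0.90) and CYP27A1, the sterol 27-hydroxylase, of -0.14 (-0.29 to 0.02). BAAT and SLC27A5, which conjugate bile acids, had -0.18 (-0.89 to 0.54) and 0.14 (-0.06 to 0.35). CYP7B1 of the alternative route was below the filter, at 0.66, 0.90, 0.41 and 0.66 in vehicle and 1.59, 1.68, 1.42 and 1.68 in EZHi libraries (exact two-sided permutation p = 0.0286, the smallest possible). With the replicate block 7 of the 15 genes were called, 4 higher and 3 lower, beside 30.0% of all genes. AKR1D1 at 0.64 (adjusted p = 0.000941) and HSD17B4 at 0.15 (0.0391) were added as higher and SLC27A2 at -0.32 (0.00669) as lower.

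Among the receptors and cofactors that act with FXR, 16 of 19 were tested, 3 rose and 2 fell (median 0.01), beside 13.1% of all genes called. With the replicate block 7 of 16 were called (5 higher, 2 lower), beside 30.0% of all genes, with FOXA2 at 0.23 and PPARGC1A at 0.40 added as higher. NR5A2, which activates CYP7A1 and is restrained by SHP, was at 6.76, 6.84, 7.0 and 6.71 in vehicle libraries and 7.36, 7.31, 7.33 and 7.32 in EZHi libraries. Its EZHi values were close together and all above vehicle, for a rise of 0.50 (SE 0.09, limma adjusted p = 0.00398). VDR, the vitamin D receptor, which also binds lithocholic acid, rose by 0.80 (limma adjusted p = 0.00507), and NCOA1, a nuclear receptor coactivator, rose by 0.67 (limma adjusted p = 0.0103). The corepressor NCOR1 fell by 0.30 (limma adjusted p = 0.00693), and the oxysterol receptor NR1H2 fell by 0.34 (limma adjusted p = 0.0276) and was called in 2 of 8 fits without 1 library, those without vehicle replicate 3 or EZHi replicate 2, with adjusted p up to 0.0776 in the others.

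RXRA, the DNA-binding partner of FXR, was not called, at a log2 fold change of 0.13 (95% interval -0.05 to 0.31), nor was HNF4A at 0.04 (-0.16 to 0.24). GPBAR1, the membrane receptor for bile acids, was below the filter at an estimated FPKM of 0.075. FGF19, the hormone that FXR induces in gut, was also below it at 0.0392, while its receptor FGFR4 and coreceptor KLB were expressed at 383 and 15 and had fold changes of 0.05 (-0.09 to 0.19) and -0.07 (-0.50 to 0.37). Of the FGF19 feedback genes limma called 0 of 3 tested, beside 13.1% of all genes, and 1 had an unadjusted p under 0.05. With the block 1 was called (MAFG, lower at -0.26), beside 30.0% of all genes. MAFG was placed in this list and is neither the hormone nor its receptor or coreceptor.

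Among other carriers of bile acids and organic anions, limma called 0 of 12 on groups alone, beside 13.1% of all genes. Of these carriers 0 had an unadjusted p under 0.05, beside 5367 of all 20153 genes tested, and log2 fold changes lay between -0.18 and 0.20. SLCO1B1, the main hepatic organic anion carrier, and SLC10A2, the ileal bile acid carrier, had no row and were not analysed here. ABCC4, a basolateral exporter like ABCC3, had a log2 fold change of 0.10 (95% interval -0.25 to 0.45). ATP8B1, a canalicular lipid flippase, had 0.20 (-0.03 to 0.44, limma adjusted p = 0.257) and was called higher with the block (adjusted p = 0.0454). In that fit 3 of 12 carriers were called, beside 30.0% of all genes.

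Of 20 further FXR targets of hepatocytes, all tested, 4 rose and 2 fell (median 0.06), beside 13.1% of all genes called. UGT2B4, which glucuronidates bile acids, was at 3.83, 3.77, 4.54 and 3.63 in vehicle libraries and 6.08, 5.77, 7.09 and 6.11 in EZHi libraries. It rose by 2.32 (SE 0.29, limma adjusted p = 0.000599), with no overlap, but UGT2B genes are close copies of each other and reads could be misassigned among them. The fibrinogen chains FGB and FGG rose by 0.92 (limma adjusted p = 0.00167) and 0.50 (limma adjusted p = 0.0342), and KNG1 (kininogen) by 1.17 (limma adjusted p = 0.0443). VLDLR, a lipoprotein receptor, fell by 0.45 (limma adjusted p = 0.0273) and the adhesion molecule ICAM1 by 0.51 (limma adjusted p = 0.00138). FGG, KNG1 and VLDLR were each called in 2 of 8 fits without 1 library. Those fits left out vehicle replicate 3 or EZHi replicate 1 for FGG, vehicle replicate 3 or EZHi replicate 2 for KNG1, and vehicle replicate 1 or 2 for VLDLR, and in the others adjusted p reached 0.102, 0.122 and 0.0763. On groups alone 14 of 20 were not called. With the replicate block 10 of 20 were called (7 higher, 3 lower), beside 30.0% of all genes, with FGA at 0.50 (adjusted p = 0.000413), APOA1 at 0.42 (0.00812) and APOC3 at 0.30 (0.0157) added as higher and SDC1 at -0.41 (0.000166) as lower. Called genes of this list moved in both directions in either fit. The list was not split by whether FXR raises or lowers each gene, so this mix cannot be read as a measure of FXR activity.

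**Figure D5:**
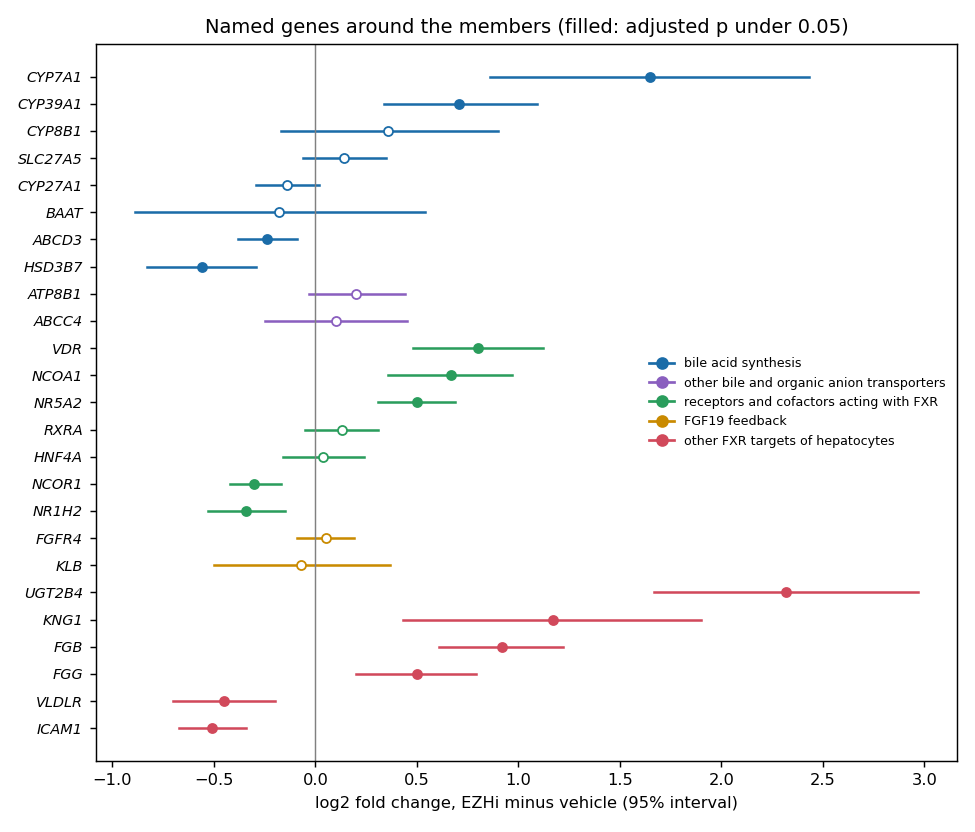
Log2 fold change of the named genes of bile acid synthesis, transport, FXR cofactors, FGF19 feedback and other FXR targets, EZHi minus vehicle, with 95% intervals from limma and filled points for adjusted p under 0.05. UGT2B4 (2.32) and CYP7A1 (1.65) are farthest to the right, and RXRA, HNF4A and FGFR4 lie near 0.

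Markers of cell types were read in the same libraries. For comparison, 13.1% of all genes were called on groups alone and 30.0% with the replicate block. An unadjusted p under 0.05 from limma on groups alone was found for 5367 of 20153 genes. Of the hepatocyte markers 1 of 14 was called on groups alone, FGB, which is also listed above. With the replicate block 7 of 14 were called, 5 higher (FGB, APOA1, APOB, APOH and AMBP) and 2 lower, namely ALB at -0.28 (adjusted p = 0.0314) and VTN at -0.35 (0.00102), each lower in 4 of 4 pairs. Of the cholangiocyte markers limma called 0 of 8 tested on groups alone (1 at an unadjusted p under 0.05) and 2 with the block (SOX9 at 0.19 and SPP1 at 0.35, both higher). For cholangiocyte markers the summed estimated FPKM was 724 to 1129 in vehicle and 913 to 1233 in EZHi libraries. Of 9 markers of other liver cells 6 had a row, while PTPRC, CD68 and DCN had none. Endothelial CDH5 rose by 2.28 (limma adjusted p = 0.00411) and VWF by 1.45 (limma adjusted p = 0.00537). Both were low, at a mean estimated FPKM of 0.317 in vehicle and 1.68 in EZHi for CDH5, and 0.642 and 1.86 for VWF. PECAM1, also endothelial, was not called at 0.04 (limma adjusted p = 0.867). CD14, PDGFRB and RGS5 were not called either, at -0.12, 0.17 and 0.10. The summed estimated FPKM of those 6 markers was 14.0 to 17.8 in vehicle and 16.7 to 21.8 in EZHi libraries, and their part in the results above was not tested.

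Over all genes 1784 were called higher and 860 lower, so 67.5% of calls were higher, and centring the libraries on genes of an estimated FPKM of at least 10 gave 2304 and 398, or 85.3% higher. That centring moved the median of all genes from -0.008 to 0.068 and left 2 members called, NR1H4 and ABCC3.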

How the data were processed

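mRNA was sequenced from 8 HepG2 libraries (4 vehicle, 4 EZHi), with groups and replicate numbers taken from the sample titles. Per the methods of the study, reads were mapped to hg38 with HISAT2 and counted per gene over exons without strand by HTSeq, and the authors then deposited log2 values, made with the regularized log of DESeq2 and corrected for mean transcript length, in a table named as FPKM. The submitters' processing notes name HISAT2 2.2.1, HTSeq 0.9.1 and DESeq2 1.40.2, and the methods give other versions of HISAT2 and DESeq2, so the versions used are not settled. The regularized log shrinks differences of genes with few reads. The table held 25604 rows, 1 a repeat that was dropped. Estimated FPKM is 2 to the power of the deposited value, divided by 25.6, the mean over libraries of values multiplied back by length and summed, in units of 1e6 (24.4 to 27.3).

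The filter kept genes whose estimated FPKM averaged 0.1 or more, and these were fitted with limma 3.58.1 in R 4.3.3 (trended prior, group only, two-sided, Benjamini-Hochberg adjustment). Design tables assumed that values might be linear, and since they were logarithmic no pseudocount was used in the fit reported. No count model was used because the deposited values are normalized logarithms. The code was tested on simulated data. Same-numbered libraries of the 2 groups deviated together (correlations of deviations 0.216 to 0.634, against -0.582 to 0.199 for different numbers), so the numbers were taken to pair the samples, a pairing that comes from the data and not from a statement in the labels. Alternatives were the replicate block, scaling (median of ratios, quantile, centring), a filter at 1 or none, a log2 transformation with a pseudocount of 0.5 or 0.1, and leaving out each library. The block combined with scaling or without 1 pair was added after seeing the data.

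The members, the gene lists and the rule for naming genes (the members, 16 pathway genes and each called gene of the lists) were chosen with earlier results of these data known, and 2 genes of the lists are not reported here. Gene coordinates came from GENCODE release 44 (GRCh38) and promoters from RefSeq. Python 3.11.15, numpy 2.4.6, scipy 1.17.1, pandas 2.3.3 and matplotlib 3.10.9 were used.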

Additional observations from a re-analysis of the deposited data

Results flagged for a closer look

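Of 66 groups of 4 libraries looked at, 2 had 1 library far from the others by Dixon's ratio of gap to range, where chance gives 3.30 (about 1 in 20). CYP27A1 of vehicle replicate 2 was at a log2 level of 11.70, with the other vehicle libraries at 11.90 to 11.92. NR1H2 of vehicle replicate 3 was at 8.91, with the others at 9.01 to 9.03. Neither gene is a member of the bile acid transporter and FXR set.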

How the results depend on the processing

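The replicate block moved the number of genes called from 2644 to 6051, and to 5791 with centring and 5593 with quantile normalization added, and an estimated FPKM of at least 1 gave 1579. Members called went from 2 to 5 in the blocked fits with all libraries. Leaving out 1 library gave 1811 to 2571 genes and 2 to 3 members, and leaving out 1 pair with the block gave 4124 to 5043 genes (4720, 5043, 4262 and 4124 without pairs 1 to 4) and 4 to 6 members. Of the members' values under the alternatives, 140 kept direction and call, 20 gained a call and 1 changed sign. That one was SLC51B without vehicle replicate 1 (0.0059, against -0.27 without vehicle replicate 4). Of the other named genes' values, 508 kept direction and call, 10 gained a call, 46 lost it and 10 changed sign. All that changed sign were uncalled: BAAT without vehicle replicate 3 (0.076, and -0.39 without vehicle replicate 2), ABCC4 without vehicle replicate 3 (-0.032, and 0.20 without EZHi replicate 3), HNF4A without vehicle replicate 2 (-0.026) or EZHi replicate 4 (-0.0033, and 0.081 without EZHi replicate 1), and KLB when centred, with or without the block (0.01), without vehicle replicate 3 (0.083, and -0.21 without vehicle replicate 2), EZHi replicate 1 (0.0036) or EZHi replicate 2 (0.039), and without pair 3 in the blocked fit (0.001). The cause of these changes was not tested. NR1H4 and ABCC3 kept their calls in each alternative run. The block alone ended no call of a named gene, and ABCD3 lost its call when centring or quantile normalization was added to the block. Unknown read depth, shrinkage of low values and 4 libraries per group limit the precision for SLC10A1, CYP7B1 and other genes near the filter.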

Other observations

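For the receptor, the repressor and the called exporter, the genes with the most similar log2 values over the 8 libraries were listed by Pearson's r among all genes tested. The points share the group difference and the replicate pairing, and the r values are a description. For NR1H4 these were SSC4D (r = 0.995), OGDHL (0.991) and MX2 (0.990), with log2 fold changes of 1.39, 0.74 and 1.05. For ABCC3 they were ACLY (ATP citrate lyase, r = 0.975), MAVS (0.970) and PLEKHA7 (0.960), with log2 fold changes of -0.26, -0.17 and -0.32. For NR0B2 they were ZNF768 (r = 0.974), C10orf62 (0.967) and ZNF384 (0.945), with log2 fold changes of -0.08, -0.12 and -0.04, none of them called.

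The polycomb list of 4 genes, which holds the targeted enzymes, had 0 genes called by limma, beside 13.1% of all genes. It had 0 at an unadjusted p under 0.05 and log2 fold changes of -0.11 to -0.06. The compounds act on enzyme activity, so these RNA levels do not check the treatment. RXRB, a partner of FXR, was listed at an estimated FPKM of only 0.0266. AMACR, a peroxisomal racemase of bile acid synthesis, was listed at 0.086, and both were below the filter. Per the methods of the study, reads under a set alignment quality were not counted. Whether reads of RXRB or AMACR were lost in mapping or counting was not tested. Their low values therefore do not show that these genes were unexpressed.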
